A study of Mus musculus with 38 samples.

Results

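Slc46a3 and Ano4 are 2 of the 29564 genes measured in left ventricles of healthy mice and of a mouse model of HFpEF, heart failure in which the ejection fraction is preserved. They were chosen by their rise with the HDAC6 inhibitor TYA-018: among the 115 genes called higher in treated than in vehicle HFpEF hearts, their p-values ranked 1 and 3. That rise is therefore given below as a description, with no test. Both genes passed the filter on low counts, which left 13765 genes.

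RNA was sequenced from 38 wild-type C57BL6 mice, 1 library per mouse, in 4 groups. The controls were healthy mice (non_failing, n = 8). The study describes the controls of this model as fed standard chow and names them a vehicle control group. The other groups received a high-fat diet with L-NAME, an inhibitor of nitric oxide synthase, and were dosed orally with vehicle (HFpEF+Veh, n = 8), with TYA-018 (HFpEF+TYA-018, n = 11) or with empagliflozin, an inhibitor of the kidney glucose transporter SGLT2 (HFpEF+SGLT2i, n = 11). The labels state female mice and the methods of the study male mice, and they also differ on the length of treatment. Neither entered a test.

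Slc46a3 encodes a solute carrier in the membrane of the lysosome, the organelle in which cells break down proteins, lipids and taken-up material. In mouse liver it is known as a gene induced through the aryl hydrocarbon receptor, a transcription factor that senses xenobiotics. Ano4, also called Tmem16d, belongs to the anoctamins, a family of membrane proteins that work as calcium-activated ion channels or move lipids between the leaflets of the membrane. HDAC6, the target of TYA-018, is a mainly cytoplasmic deacetylase whose known substrates include tubulin.

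Slc46a3 (ENSMUSG00000029650.10) lies on the minus strand of chromosome 5, chr5:147878437-147894815 on GRCm38, with 4 annotated transcripts, of which 3 are protein-coding. Ano4 (ENSMUSG00000035189.16) lies on the minus strand of chromosome 10, chr10:88948994-89344762, with 12 annotated transcripts, of which 6 are protein-coding. No other annotated gene overlapped either of them. The 250 bases before the RefSeq start of 1 transcript of each gene are shown, since the levels of both genes differ between groups. For Ano4 that start lies inside the annotated span, and other Ano4 transcripts start farther upstream, the outermost at 89344762. They are RefSeq sequence on GRCm38.p6, minus strand, at chr5:147894816-147895065 and chr10:89257791-89258040, and capitals mark the GC box (GGGCGG) and the CCAAT box (CCAAT) on either strand.

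Slc46a3: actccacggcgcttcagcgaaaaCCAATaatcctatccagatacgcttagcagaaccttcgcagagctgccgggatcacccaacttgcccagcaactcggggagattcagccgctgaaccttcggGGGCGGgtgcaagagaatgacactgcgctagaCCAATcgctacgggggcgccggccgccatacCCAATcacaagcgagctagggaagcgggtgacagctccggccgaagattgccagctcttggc

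Ano4: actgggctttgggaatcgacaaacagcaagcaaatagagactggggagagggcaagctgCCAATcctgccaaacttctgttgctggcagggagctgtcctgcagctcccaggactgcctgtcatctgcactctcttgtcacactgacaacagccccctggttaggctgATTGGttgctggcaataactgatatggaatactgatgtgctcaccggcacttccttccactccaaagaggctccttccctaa

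The upstream sequence of Slc46a3 held 3 CCAAT boxes and 1 GC box, and that of Ano4 held 2 CCAAT boxes. Counted with the 50 bases after the start, which are not shown, Ano4 also had 1 GC box. Over the same 300 bases, 37.4% of 32851 RefSeq promoters held a CCAAT box and 35.7% a GC box. The core of the response element bound by the aryl hydrocarbon receptor (GCGTG) was at 0 in both windows and present in 32.4% of promoters, and the E-box CACGTG was at 0 in both and present in 7.15%. The cAMP response element TGACGTCA was also at 0 in both, against 1.79% of promoters. A core of the antioxidant response element (TGACNNNGC, 12.4% of promoters) occurred at 2 positions for Slc46a3 and at 0 for Ano4. These matches describe letters in these windows on both strands and no binding was measured. The windows differed in CG dinucleotides, with 23 for Slc46a3, more than in 78.5% of promoters, and 3 for Ano4, more than in 23.3%. Their GC contents were 60.0% and 55.3%, and the median promoter had 52.7% and 7 CG dinucleotides.

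Slc46a3 had its highest mean in TYA-018 hearts, and the means of the other groups lay close together. Its level was 8.46 ± 1.83 TPM (transcripts per 1000000 transcripts, SD, n = 11) with TYA-018, 6.01 ± 1.44 (n = 11) with empagliflozin, 5.43 ± 1.21 (n = 8) in non_failing and 5.32 ± 0.497 TPM (n = 8) with vehicle. The 11 TYA-018 libraries ran from 5.34 TPM in V2570 through a median of 8.78 to 11.2 TPM in V2549. The 8 vehicle libraries ran from 4.42 TPM in V2523 through a median of 5.34 to 5.96 TPM in V2532. Of the TYA-018 libraries, 10 of 11 lay above every vehicle library, and V2570 was the exception.

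The empagliflozin libraries ran from 4.15 TPM in V2572 through a median of 5.55 to 8.84 TPM in V2566, and overlapped all other groups. The non_failing libraries ran from 4.00 TPM in V2502 through a median of 5.49 to 7.32 TPM in V2509. The vehicle group was the tightest, with a coefficient of variation of 9.35% against 21.6% to 24.0% in the others. Estimated counts behind these levels ran from 145 to 562 reads per library.

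The Ano4 means were ordered otherwise: the gene was low in HFpEF hearts given vehicle or empagliflozin and stood near the healthy level with TYA-018. Its level was 1.63 ± 0.539 TPM (SD, n = 11) with TYA-018, 1.34 ± 0.266 (n = 8) in non_failing, 0.911 ± 0.254 (n = 11) with empagliflozin and 0.844 ± 0.244 TPM (n = 8) with vehicle. The TYA-018 libraries ran from 0.862 TPM in V2555 through a median of 1.6 to 2.53 TPM in V2550. The vehicle libraries ran from 0.430 TPM in V2530 through a median of 0.855 to 1.16 TPM in V2521. Here 8 of 11 TYA-018 libraries lay above every vehicle library, and V2555, V2559 and V2570 fell inside the vehicle range.

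The non_failing libraries ran from 0.978 TPM in V2502 through a median of 1.26 to 1.81 TPM in V2510. The empagliflozin libraries ran from 0.526 TPM in V2573 through a median of 0.871 to 1.27 TPM in V2566, and 7 of 11 lay below every non_failing library. Ano4 was the less abundant of the pair on the TPM scale, with 41.0 to 250 estimated reads per library.

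**Figure D1:**
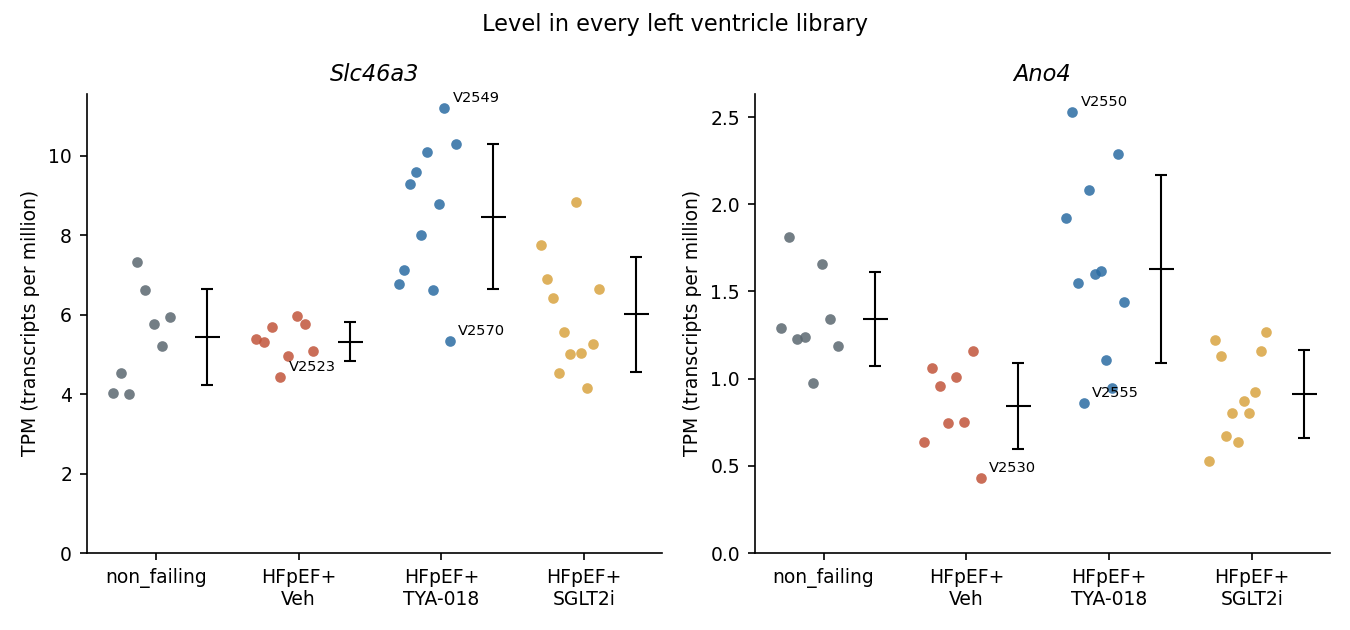
Level of Slc46a3 (left) and Ano4 (right) in TPM, both axes from 0, with 1 point per left ventricle library in each of the 4 groups and the mean ± SD beside the points. Slc46a3 has its highest mean with TYA-018 (8.46 TPM against 5.32 to 6.01 in the other groups), and single libraries overlap. Ano4 has low means with vehicle (0.844 TPM) and empagliflozin (0.911 TPM) and higher means in non_failing (1.34 TPM) and with TYA-018 (1.63 TPM).

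The drug difference that chose the genes was 0.76 on the log2 scale for Slc46a3 (SE 0.13, 1.70-fold) and 1.05 for Ano4 (SE 0.19, 2.07-fold) in HFpEF+TYA-018 against HFpEF+Veh, from an edgeR fit to the counts. In that comparison 1.93% of all genes tested were called at an adjusted p under 0.05 (edgeR quasi-likelihood test, Benjamini-Hochberg), and nothing is read from the 2 members being among them. Against empagliflozin, TYA-018 hearts were higher by 0.49 for Slc46a3 (SE 0.11) and by 0.86 for Ano4 (SE 0.17). The single libraries overlapped more for Slc46a3, with 5 of 11 TYA-018 libraries above every empagliflozin library, than for Ano4, with 8 of 11. Against non_failing, the TYA-018 difference was 0.61 for Slc46a3 (SE 0.13), with 7 of 11 libraries above every control. For Ano4 it was 0.27 (SE 0.18), with 4 of 11 libraries above and 2 of 11 below every control. Without V2550 this Ano4 difference was 0.15. In the comparison with empagliflozin edgeR called 0 of 13765 genes, with 1821 at an unadjusted p under 0.05, limma also called 0, edgeR with a length offset 5 and DESeq2 187. These comparisons share the TYA-018 libraries by which the genes were selected, so they carry no p here.

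Slc46a3 was not called in HFpEF+SGLT2i against non_failing: the log2 fold change was 0.12 (SE 0.13, 95% interval -0.13 to 0.38, edgeR adjusted p 0.645). Neither group entered the comparison of TYA-018 with vehicle by which the genes were chosen. The spread of each gene was estimated over all 38 libraries, and the genes were chosen with earlier results known. This p is therefore not independent of the choice. The vehicle libraries entered that choice, so comparisons with them are given as values with no p. With empagliflozin against vehicle Slc46a3 differed by 0.28 (SE 0.13), with 5 of 11 libraries above and 1 of 11 below every vehicle library. HFpEF+Veh against non_failing gave -0.15 (SE 0.14), and no vehicle library lay outside the range of the controls. Over all 46 alternatives that difference ran from -0.21 to -0.01, and the one with empagliflozin against vehicle from 0.15 to 0.33.

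Ano4 was lower in HFpEF+Veh than in non_failing by a log2 difference of -0.78 (SE 0.20), with 8 of 8 vehicle libraries below the control mean and 5 of 8 below every control. A low vehicle level favours the choice of the gene, so this is a description. Without V2530, which had the lowest Ano4 level, the difference was -0.69 (SE 0.20). With empagliflozin against vehicle Ano4 differed by 0.18 (SE 0.19), with 3 of 11 libraries above and 0 of 11 below every vehicle library. Over all 46 alternatives that difference ran from 0.08 to 0.24, and without V2530 it was 0.10.

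HFpEF+SGLT2i against non_failing gave for Ano4 a log2 fold change of -0.59 (SE 0.18, 95% interval -0.96 to -0.23, edgeR adjusted p 0.0405). In it 11 of 11 empagliflozin libraries lay below the control mean, and 2.99% of all genes were called lower. As for Slc46a3, neither group entered the comparison that chose the genes, but the p is not independent of the choice. The call lies near the threshold: it was kept in 33 of 46 alternatives, and the adjusted p ran from 0.0225 to 0.0859. It was lost on leaving out any of 9 single libraries (V2507, V2509, V2510, V2563, V2564, V2571, V2572, V2573 or V2574), where the change was between -0.59 and -0.53 and the adjusted p between 0.05 and 0.0851. In the same comparison all 8 hepatocyte markers were called lower with empagliflozin (median -5.31), with summed levels of 12.3 to 213 TPM in non_failing and 0.158 to 5.16 TPM with empagliflozin. Their part in the Ano4 difference was not tested.

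**Figure D2:**
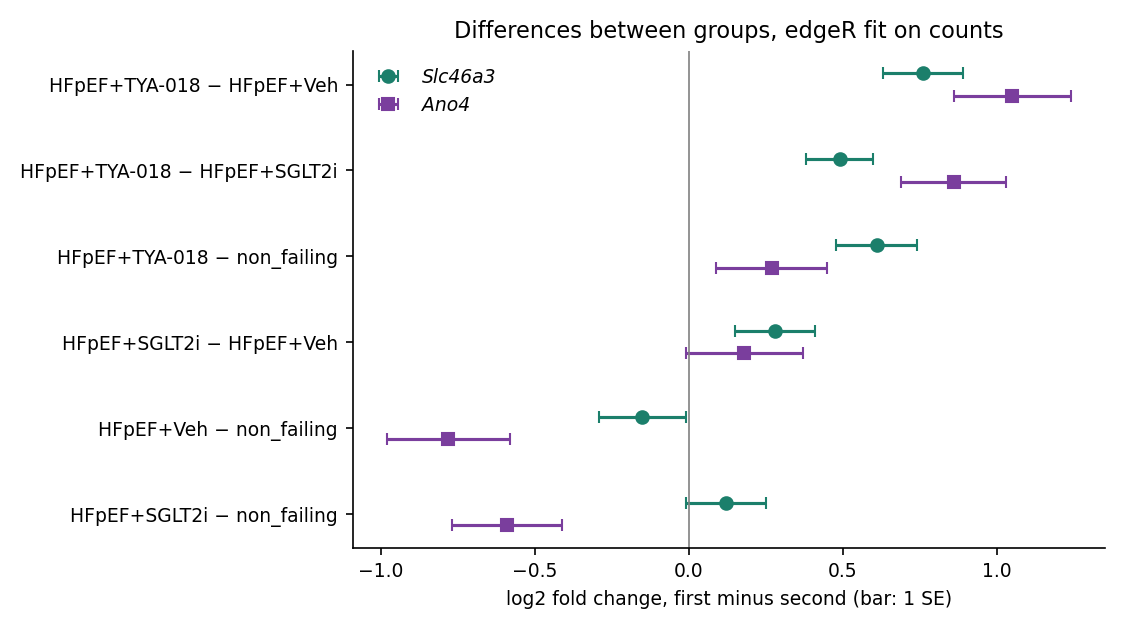
Log2 fold change (horizontal axis, first group minus second) of Slc46a3 (circles) and Ano4 (squares) in the 6 comparisons between groups, with bars of 1 SE from the edgeR fit. The 3 upper comparisons involve the TYA-018 libraries, and 2 of the lower 3 the vehicle libraries, by which the genes were selected. In the lowest pair Ano4 lies at -0.78 and -0.59 against non_failing, while Slc46a3 lies at -0.15 and 0.12.

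In order of mean TPM, the groups ran for Slc46a3 from HFpEF+Veh over non_failing and HFpEF+SGLT2i to HFpEF+TYA-018, and neighbours among the lower 3 groups differed by less than the SD of the wider of the pair. The order for Ano4 was HFpEF+Veh, HFpEF+SGLT2i, non_failing and HFpEF+TYA-018. The lower pair and the upper pair each differed by less than the SD of the wider group, and the step between empagliflozin and non_failing passed the test given above.

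Libraries held 21.5 to 59.3 M counts, where M stands for 1000000, with a median of 29.5 M. V2523, a vehicle library, stood apart: its summed level of 8 hepatocyte markers was 843 TPM, against at most 19.3 TPM in the other vehicle libraries. The same sum was 12.3 to 213 TPM in non_failing, 0.23 to 1.86 with TYA-018 and 0.158 to 5.16 TPM with empagliflozin, and all 8 of these genes were called lower with TYA-018 than with vehicle, as were 151 of all 13765 genes. Without V2523 the median sum with vehicle was 1.31 TPM, against 0.494 TPM with TYA-018. V2523 had the lowest Slc46a3 level of its group. Without it the vehicle level was 5.45 ± 0.368 TPM for Slc46a3 and 0.813 ± 0.246 TPM for Ano4 (SD, n = 7), and the TYA-018 difference from vehicle was 0.72 (SE 0.13) and 1.08 (SE 0.20), so the rise of either gene was about as large. V2570 carries a mouse number that falls among those of the HFpEF+SGLT2i group, and without it these differences were 0.80 (SE 0.12) and 1.09 (SE 0.19).

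In ventricle homogenate, fewer cells of a type and less RNA per cell cannot be told apart. The summed level of 6 cardiomyocyte markers (Myh6, Tnnt2, Tnni3, Actc1, Ryr2 and Pln) ran from 8376 to 16571 TPM over all libraries. The TYA-018 libraries with the lowest Ano4, V2555, V2559 and V2570, had the lowest cardiomyocyte sums of their group, 10858, 11094 and 11409 TPM, against 12467 to 16571 TPM in the other 8. In the same group V2555 was highest for the macrophage sum (165 TPM), V2570 for the fibroblast sum (322 TPM) and V2559 for the atrial sum (7.73 TPM), and V2559 was lowest for the mural sum (140 TPM). V2530, lowest for Ano4 in the vehicle group, was also lowest there for the cardiomyocyte sum (10461 TPM) and highest for the sums of 6 fibroblast markers (582 TPM) and 6 macrophage markers (152 TPM). In non_failing the lowest sum was in V2507 (10777 TPM), where Ano4 stood at 1.34 TPM, the group mean. Among the empagliflozin libraries V2573 was lowest for Ano4 (0.526 TPM), with a cardiomyocyte sum that ranked 7 of 11 (12477 TPM) and the highest atrial sum (8.24 TPM). The lowest cardiomyocyte sums there were in V2571 and V2572 (8376 and 9354 TPM), next lowest for Ano4 at 0.674 and 0.635 TPM. V2571 was also highest in that group for the endothelial sum (3868 TPM) and the macrophage sum (143 TPM). For the endothelial sum V2572 ranked 3 of 11 (3154 TPM) and V2530 of the vehicle group 2 of 8 (2782 TPM). In the TYA-018 group V2555, V2570 and V2559 ranked 2, 4 and 8 of 11 for it (3073, 2694 and 2041 TPM).

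Between groups, 2 of 6 cardiomyocyte markers were called lower in HFpEF+Veh than in non_failing (median -0.26) and 2 of 6 in HFpEF+SGLT2i (median -0.13), where 1.38% and 2.99% of all genes were called lower. In HFpEF+SGLT2i 1 fibroblast marker was called higher and 1 lower. An atrial marker was called higher in each of these comparisons. Of 6 fibroblast markers, 2 were called higher in HFpEF+Veh than in non_failing, and 2 of 6 mural markers were called lower. Of all genes, 243 of 13765 were called higher in HFpEF+Veh and 476 of 13765 in HFpEF+SGLT2i. In HFpEF+TYA-018 against HFpEF+Veh, none of the cardiomyocyte (median 0.21), fibroblast (-0.23), endothelial (-0.13), macrophage (-0.07) or mural (0.00) markers was called by edgeR. In the same comparison 3 of 4 atrial markers were tested and 0 called (median 0.31). Markers of adipocytes summed to at most 0.701 TPM, with Plin1 at 0 in non_failing. The part of cell makeup in the level of Slc46a3 or Ano4 was not tested.

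Whether mice with more Slc46a3 also had more Ano4 was tested within each group, and no relation passed the test. Pearson's r on log2 CPM (TMM-scaled counts per 1000000) was 0.694 in non_failing (n = 8, exact permutation p 0.0629), 0.594 with TYA-018 (n = 11, permutation p 0.0551), 0.306 with empagliflozin (n = 11, permutation p 0.358) and -0.494 with vehicle (n = 8, exact permutation p 0.214). The adjusted p over the 4 groups was 0.126, 0.126, 0.358 and 0.285. Spearman's rho was 0.619, 0.582, 0.282 and -0.738, with permutation p of 0.115, 0.0677, 0.401 and 0.0458 and adjusted p of 0.153, 0.135, 0.401 and 0.135. Without the 2 libraries farthest from the median of Slc46a3, r was 0.400, 0.620, 0.518 and -0.527. On leaving out 1 library, r ran from 0.527 to 0.773 in non_failing and from -0.719 to -0.461 with vehicle. With empagliflozin it ran from 0.124 without V2573 to 0.611 without V2562.

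In the TYA-018 group V2555 stood off the line, with Slc46a3 at 9.29 TPM and the lowest Ano4. Without it r was 0.871 (n = 10, permutation, adjusted p 0.00308), and leaving out another TYA-018 library gave r down to 0.457, so that relation rests on whether V2555 is kept. The value of 0.871 is the highest of the fits that each left out 1 TYA-018 library. Its p was not adjusted over those fits, so nothing is read from it. V2549 and V2550 were high for both genes, at 11.2 and 10.1 TPM for Slc46a3 and at 2.29 and 2.53 TPM for Ano4.

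**Figure D3:**
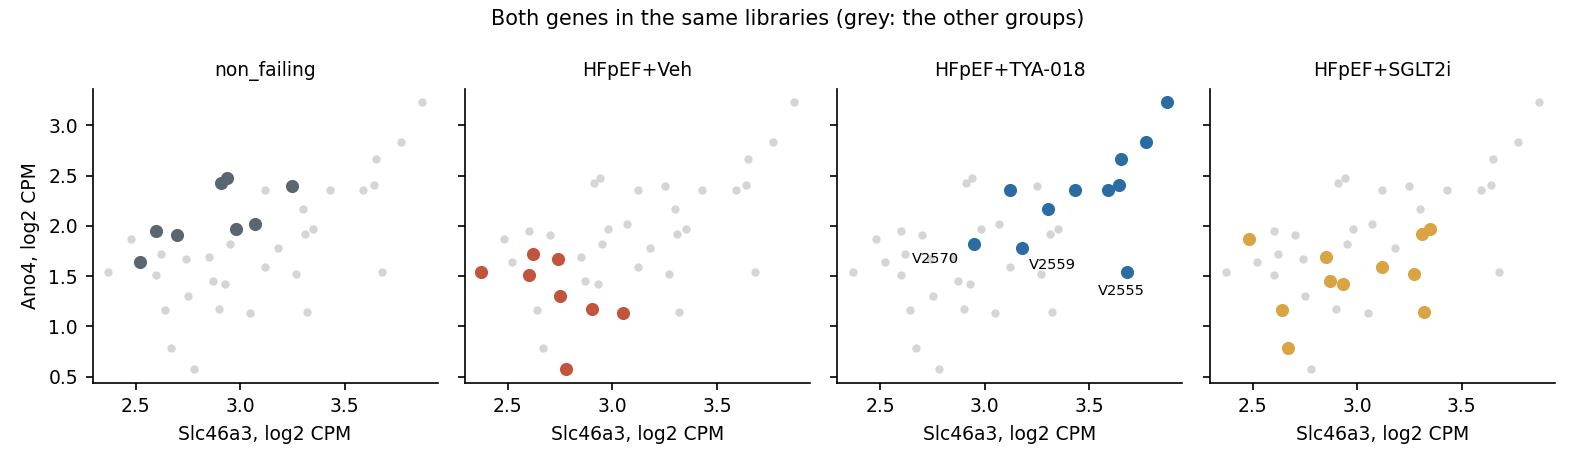
Log2 CPM of Slc46a3 (horizontal axis) against Ano4 (vertical axis), 1 panel per group, with the group's libraries coloured and all other libraries in grey. The TYA-018 libraries lie toward the upper right apart from V2555, V2559 and V2570, and r within the groups runs from -0.494 (vehicle) to 0.694 (non_failing).

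The genes whose log2 CPM followed Slc46a3 most closely over the 38 libraries were Lonrf1 (r 0.738), Tmem57 (0.722), Hdac4 (0.699), which encodes a class II histone deacetylase, Gm4956 (0.694) and Rom1 (0.692). Without V2523, Lonrf1 and Rom1 ranked 1 and 2, Tmem57 5, Hdac4 8 and Gm4956 10. After each group was centred on its own mean, Gm4956 (0.708), Tmem57 (0.691) and Lonrf1 (0.637) led. Those closest to Ano4 were Nudt22 (r 0.754), Rbpms2 (0.731), Rab3a (0.731), a GTPase of vesicle release, Flad1 (0.704), the enzyme that makes FAD, and Cmc2 (0.698). Their ranks were the same without V2523. After centring, Slc36a2 (0.676), an amino acid transporter, Kcnn2 (0.644), a calcium-activated potassium channel, and Sema3b (0.619) led. No gene was on both lists, from which nothing is read because the lists are short. The members correlated with each other at 0.580, or 0.353 after centring. Over the 38 libraries Ano4 ranked 41 for Slc46a3 and Slc46a3 ranked 59 for Ano4 (140 and 197 by Spearman's rho). These values are descriptions over libraries that share groups, depth and cell makeup.

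With TYA-018 against vehicle 1.93% of all genes were called and 2404 of 13765 had an unadjusted p under 0.05. At that share lists of this size would hold few calls or none, so the counts below describe the relatives and set them apart from no other genes. Slc46a1, the proton-coupled folate transporter of the same family, stood at 0.823 ± 0.408 TPM (n = 8) with vehicle and 0.764 ± 0.202 TPM (n = 11) with TYA-018, and the log2 difference fitted to the counts was 0.05 (SE 0.20, 95% interval -0.36 to 0.47, edgeR adjusted p 0.916). The TPM means and the fitted difference point in opposite directions, and the interval covers both. Slc46a2 had at most 6 reads in a library and was not tested. Of the 9 anoctamins besides Ano4, 5 were tested and 0 called by edgeR in HFpEF+TYA-018 against HFpEF+Veh, with 2 at an unadjusted p under 0.05 and a lowest adjusted p of 0.161. Ano6, a calcium-activated lipid scramblase, stood at 4.90 ± 0.627 TPM (SD, n = 8) with vehicle and 3.74 ± 0.650 TPM (n = 11) with TYA-018, and the difference did not pass the test (-0.27, SE 0.11, edgeR adjusted p 0.161). Ano1, a calcium-activated chloride channel, gave -0.29 (SE 0.14), Ano5 0.33 (SE 0.20), Ano8 0.09 (SE 0.14) and Ano10 -0.03 (SE 0.12). Ano2, Ano3, Ano7 and Ano9 were filtered out, with group means of at most 0.0320 TPM, so Ano4 was 1 of 6 anoctamins measurable in these ventricles.

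A list of 32 other genes of lysosomal transport holds transporters, channels and partner proteins, called lysosomal transporters below. All were tested and 0 were called with TYA-018 against vehicle by edgeR. Of them 5 had an unadjusted p under 0.05, with a median log2 difference of -0.02 over the list and a lowest adjusted p of 0.109. The median over all genes tested was -0.01. Of 9 other targets of the aryl hydrocarbon receptor, 6 were tested and 0 called, with 0 at an unadjusted p under 0.05 and a median of -0.03. Of 12 other chloride channels and scramblases, 7 were tested and 0 called, with 0 at an unadjusted p under 0.05. With empagliflozin against vehicle, where 0.850% of all genes were called, and 1383 of 13765 had an unadjusted p under 0.05, each of these lists and the anoctamins again had 0 called genes, with 3 lysosomal transporters and none of the others at an unadjusted p under 0.05. DESeq2 and limma called 0 of these genes in either comparison.

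Against non_failing 3.15% of all genes were called in HFpEF+Veh, 7.39% with TYA-018 and 6.45% with empagliflozin, in either direction, and these comparisons share the 8 non_failing libraries. The called relatives are named after their values were seen. Ahrr, the repressor that the aryl hydrocarbon receptor induces, was lower by 0.79 in HFpEF+Veh (edgeR adjusted p 0.0250), by 0.67 with TYA-018 (0.0226) and by 0.66 with empagliflozin (0.0265), the 1 of 6 tested targets called in each. In each of these comparisons 4 of the 6 targets had a log2 difference above 0, with list medians of 0.36 with vehicle, 0.05 with TYA-018 and 0.06 with empagliflozin. The other 3 targets were removed by the filter on low counts and not tested. Cyp1a1 had a mean of 0.415 TPM in non_failing against 0.00432 in HFpEF+Veh, Cyp1a2 0.245 against 0.273 TPM and Ugt1a6b 0.145 against 0.0970 TPM, and their means with TYA-018 or empagliflozin were at most 0.0497 TPM. The vehicle mean of Cyp1a2 rests on V2523, with 160 counts against at most 9 in the other vehicle libraries. Its median count was 0.5 with vehicle and 7.5 in non_failing. The hepatocyte markers, at 12.3 to 213 TPM in non_failing and high in V2523, differed between the same groups, and their part in these levels was not tested. Plscr1, a phospholipid scramblase, was higher by 0.40, 0.37 and 0.43 in the same groups (edgeR adjusted p 0.0368, 0.0240 and 0.00787), the 1 of 7 tested channels and scramblases called in each. Of 32 lysosomal transporters, 2 were called with TYA-018 and 1 with empagliflozin, near or under the share of all genes. The heme transporter Slc48a1 (0.26, adjusted p 0.00184) and Abcb9 (0.32, adjusted p 0.0127), a lysosomal peptide transporter, were called higher with TYA-018, and Slc37a2 (0.41, adjusted p 0.0358) with empagliflozin.

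The neighbouring genes are too few for their count to set them apart from the 1.93% of all genes called. Of 9 protein-coding genes within 250 kb, 7 were tested and edgeR called 0 of 7 with TYA-018 against vehicle, with 1 at an unadjusted p under 0.05, and 0 of 7 with empagliflozin against vehicle, also with 1. Near Slc46a3 the differences were 0.02 for Pomp, a proteasome assembly factor whose gene ends 1.981 kb from it, -0.05 for Flt1, a VEGF receptor, and 0.20 for Mtus2. Near Ano4 they ran from -0.73 for Nr1h4, the bile acid receptor FXR (adjusted p 0.225), to 0.08 for Arl1. The level of Nr1h4 varied most with vehicle, at 0.516 ± 0.655 TPM (SD, n = 8) against SDs of at most 0.103 TPM in the other groups.

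**Figure D4:**
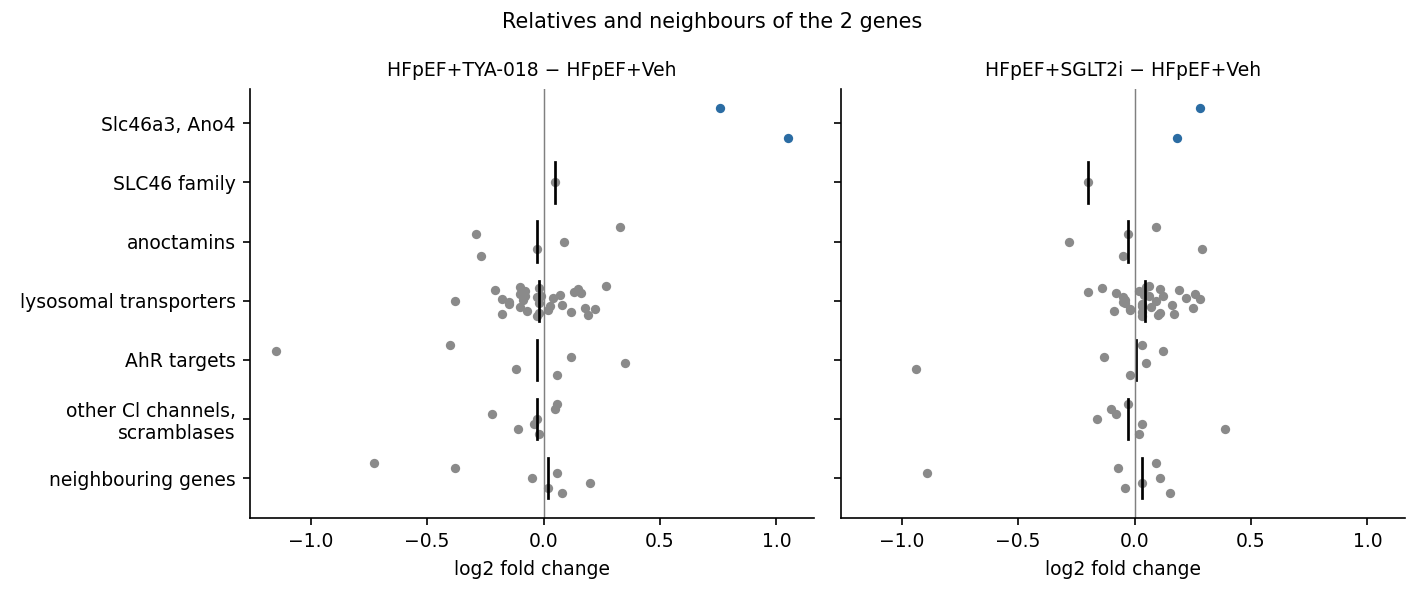
Log2 fold change (horizontal axis) of each tested gene, 1 point per gene, for the 2 members and 6 lists of relatives and neighbours (rows, vertical bars at each list's median), with TYA-018 against vehicle on the left and empagliflozin against vehicle on the right. The members lie at 0.76 and 1.05 on the left, where the medians of the lists lie between -0.03 and 0.05.

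The effective length, in bases, is the length that the quantification used for a gene after its corrections for fragment length and bias, weighted over the transcripts it assigned, so it is not transcript length alone. It was compared for 8 pairs of gene and groups, and TYA-018 and empagliflozin were not tested against non_failing. For Slc46a3 it was 965 bases with TYA-018 (n = 11), 992 with vehicle (n = 8), 1047 with empagliflozin (n = 11) and 1043 in non_failing (n = 8). For Ano4 the means were 2302, 2421, 2456 and 2446 bases in the same order. The longest coding transcripts span 2434 spliced bases for Slc46a3 and 4018 for Ano4.

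None of 8 length comparisons passed the test, and the lowest adjusted p belonged to Ano4, which was 154 bases shorter in TYA-018 than in empagliflozin hearts (a difference of -154, permutation p 0.00940, adjusted p 0.0752). Without V2548 that difference was -170 bases (adjusted p 0.0432) and without V2575 -182 bases (adjusted p 0.00424), so it passed on leaving out either library, and its adjusted p over single libraries left out ran from 0.00424 to 0.152. TYA-018 against vehicle gave -26.8 bases for Slc46a3 (exact permutation p 0.560) and -119 bases for Ano4 (exact permutation p 0.138). Without V2532 the Ano4 difference from vehicle was -48.9 bases.

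**Figure D5:**
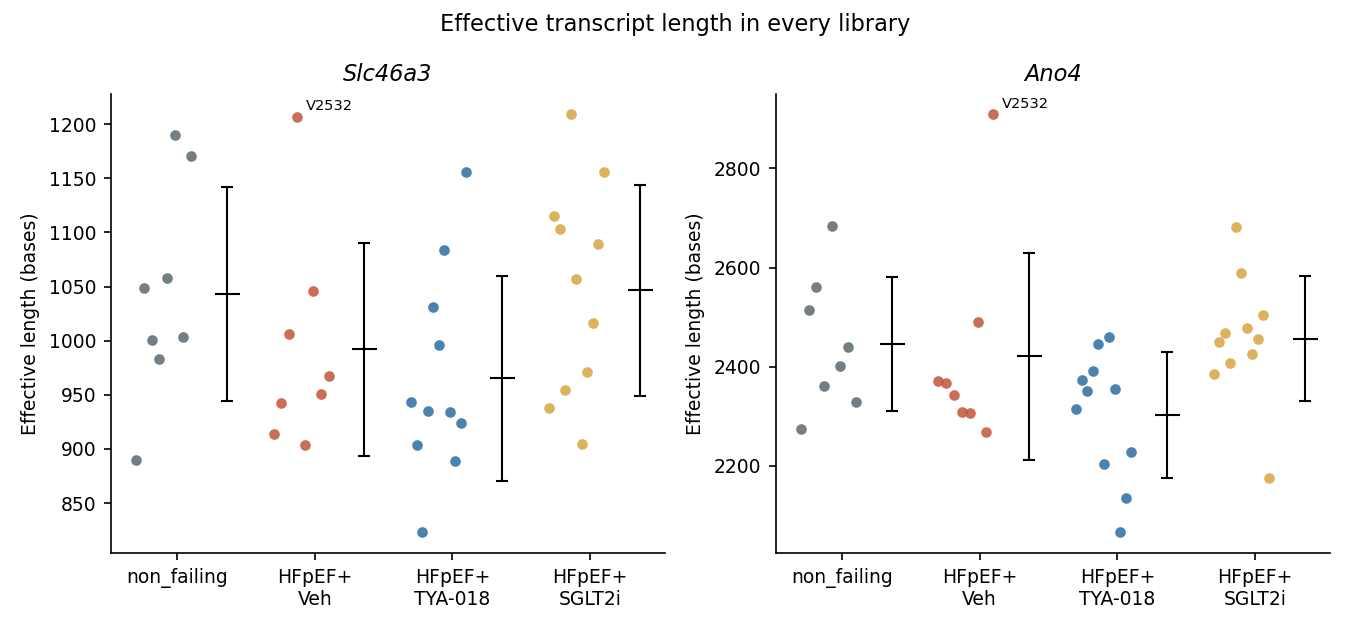
Effective length in bases (vertical axes, not from 0) of Slc46a3 and Ano4, 1 point per library in the 4 groups, with the mean ± SD beside the points. The groups overlap for both genes, and V2532 of the vehicle group lies highest in its group at 1207 and 2909 bases.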

How the data were processed

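Left ventricle RNA of 38 mice was sequenced by the authors from polyadenylated RNA with a stranded kit. The authors trimmed reads with fastp, quantified transcripts with salmon (1.6.0 in the submitters' processing notes) and used tximport for gene sums. The deposited expected counts are estimated reads per gene, the deposited TPM values are scaled to 1000000 transcripts within each library, and the authors' table of effective lengths gives bases per gene and library. The processing notes name a human build, while the methods give GRCm38, and the gene symbols are those of mouse. Salmon divides reads shared by transcripts with a model. This mostly affects close paralogs, and length-corrected values of Ano4 also depend on the transcripts assigned.

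Expected counts were rounded, filtered with filterByExpr and scaled with TMM factors (0.856 to 1.11). One model over the 4 groups, with no covariates, was tested by the two-sided quasi-likelihood test of edgeR 4.0.16 (R 4.3.3), and p-values were adjusted over all genes tested (Benjamini-Hochberg, call at 0.05). The alternatives were other scalings, a length offset, DESeq2 1.42.0, limma 3.58.1 on log2(TPM + 1) and log2(TPM + 0.1), no filter, only the groups compared, and each library left out. Lengths and correlations were tested by permutation, exact where a group held 8 libraries and with 100000 resamples otherwise. Log2 CPM used a prior count of 2. Sample titles gave each library's group and mouse number. These numbers differ between groups, so nothing was paired. The highest correlation between libraries was 0.9893 and no pair was identical. Scripts were tested on simulated data.

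The members and lists were chosen with earlier results of these data known. Named genes are the members, their families, genes of the lists of relatives and neighbours called against vehicle (none was in the edgeR fit described above), and the 5 genes (3 after centring) with the highest r to a member. Listed genes called against non_failing, the untested receptor targets and some neighbours were named after their values were seen. The design fixed p-values for comparisons with vehicle too, and these are not printed for the members. Symbols and coordinates were taken from GENCODE M21 on GRCm38 and promoters from RefSeq.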

Additional observations from a re-analysis of the deposited data

Results flagged for a closer look

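In HFpEF+Veh, V2532 stood apart from the other 7 libraries in effective length. For Slc46a3 it was at 1207 bases against 1046 in the next library, a gap of 0.531 of the group's range. For Ano4 it was at 2909 against 2490 bases, a gap of 0.655 of the range. The threshold for 8 libraries is 0.526, which chance passes in about 1 in 20 sets of values. Only the groups of 8 libraries were examined, and 2 of 12 sets passed, both for V2532 and for length. The sets share libraries and genes, so that count cannot be set against the rate of chance. V2532 was also the most deeply sequenced vehicle library (57.7 M counts, M being 1000000). Its part in the lengths was not tested.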

How the results depend on the processing

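The higher level of both genes with TYA-018 kept its direction in all 46 alternatives of each comparison. The genes were chosen for their rise in these same libraries, and most alternatives leave out 1 library. The kept direction is therefore a description and no independent check. Against vehicle the log2 difference ran from 0.60 to 0.82 for Slc46a3 and from 0.62 to 1.11 for Ano4. Against empagliflozin it ran from 0.43 to 0.55 and from 0.54 to 0.93, and against non_failing from 0.55 to 0.68 and from 0.15 to 0.32. Ranges over the alternatives, here and above, include differences of log2(TPM + 1) and log2(TPM + 0.1). On those scales the added constant compresses differences of a gene near 1 TPM such as Ano4, so the ends are not all on 1 scale. With library size alone the median of all genes moved to -0.14 with TYA-018 against vehicle, where Slc46a3 was at 0.63 and Ano4 at 0.91. Slc46a3 in empagliflozin hearts against non_failing was not called in any of its 46 alternatives (adjusted p 0.448 to 0.800). The fall of Ano4 with empagliflozin against non_failing lost its call with the length offset (-0.57, adjusted p 0.0626), with limma on log2(TPM + 1) (-0.36, 0.0859), with limma on log2(TPM + 0.1) (-0.54, 0.0783) and with no filter on low counts (-0.59, 0.0535). The last of these adjusts over more genes, and the cause of the others was not tested. Leaving out 1 library gave -0.65 to -0.53 for that fall and -0.84 to -0.69 for the difference of Ano4 between vehicle and non_failing. Over the other settings the difference between vehicle and non_failing ran from -0.79 to -0.44. With TYA-018 against vehicle, 1 anoctamin (Ano6) and 1 lysosomal transporter (Slc15a3) were called with library size alone. With no filter, 1 target of the aryl hydrocarbon receptor, Cyp1a2, was called against vehicle with TYA-018, and again 1, the same gene, with empagliflozin. Its highest vehicle count was 160 in V2523, and the next was 9. On leaving out 1 library the length difference of Slc46a3 between TYA-018 and vehicle ran from -45.9 to 3.83 bases, turning direction without V2532, and that of Ano4 between vehicle and non_failing from -94.5 to 9.33 bases, turning without V2508. That of Ano4 between TYA-018 and empagliflozin ran from -182 to -131 bases, and r with TYA-018 from 0.457 to 0.871. No paired analysis was possible because mouse numbers differ between all groups. Ano4 rests on as few as 41.0 reads in a library, which limits its precision more than that of Slc46a3.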
